A study of Mus musculus with 12 samples.

Results

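Cytokine receptor chains that set natural killer T (NKT) cell subsets apart were followed across sorted thymic and liver cells. The 10 chains are Il12rb1, Il12rb2, Il23r, Il18r1, Il18rap, Il17rb, Il17ra, Il1r1, Il1rl1 and Il6ra. They were chosen by symbol, and all 10 are among the 23284 genes of both tables. NKT cells are T cells whose receptors see lipids on the CD1d molecule. They came from C57BL/6 mice and were sorted as live cells positive for the T cell receptor beta chain and for CD1d dimer and negative for CD45R, CD4 and CD8. The 12 RNA libraries form 4 groups of 3. The cKO groups, from thymus and from liver, are cells of double-negative (DN) origin, from mice in which a Cre driven by the E8III enhancer deletes a floxed Rag2 gene at the double-positive (DP) stage of thymocyte development. The YFP+ groups are cells of DP origin, from mice in which the same Cre switches on a Rosa26 loxP-STOP-loxP reporter. All groups thus carry E8III-Cre, and only the cKO mice lose Rag2, so the origin of the cells and the mouse they developed in cannot be told apart. The labels give no age and do not say whether replicates are separate animals, and p-values then reflect only how these samples scatter, which may be technical.

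The chains work in pairs. IL-12Rβ1 (Il12rb1) is shared: with IL-12Rβ2 (Il12rb2) it binds IL-12, and with IL-23R (Il23r) it binds IL-23, both signalling through Jak2, Tyk2 and STAT proteins. IL-18Rα (Il18r1) with its accessory chain (Il18rap), IL-1R1 (Il1r1) and the IL-33 receptor ST2 (Il1rl1) belong to the IL-1 receptor family and signal through MyD88. IL-17RB (Il17rb) with the shared chain IL-17RA (Il17ra) binds IL-25 and signals through Act1, while IL-6Rα (Il6ra) pairs with gp130. In textbook accounts NKT1 cells, which depend on T-bet, answer IL-12 and IL-18 with interferon-γ. NKT17 cells, which make IL-17, carry IL-23R and IL-1R1, and IL-17RB marks NKT2 cells, which make IL-4, and part of the NKT17 cells.

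Expression is given as FPKM, which corrects for both the length of a transcript and the size of a library, so levels of different genes can be set side by side within a library. The FPKM of a library summed to between 187828 and 212688 in the thymus and between 450429 and 558042 in the liver. The tables were normalized separately and read totals are not part of them, so depth is unknown and tests stay within a tissue. Titles and descriptions of the 6 liver libraries contradict each other on the mouse. Titles are followed here, as in the column headers. Should the descriptions be right, each liver change has the opposite sign. By the titles, Rag2, the deleted gene, read 0 in each liver cKO library and 1.365, 0.985 and 1.075 FPKM in the liver YFP+ libraries. Rag1, which is not the deleted gene, was also lower in liver cKO, at a mean of 0.188 against 1.72 FPKM. The Rag2 values therefore do not settle the liver labels. The thymus values of Rag2, 0 everywhere but in cKO replicate 2 (0.015 FPKM), do not check the thymus labels. All 7 genes of a T and NKT cell list (Cd3d, Cd3e, Cd3g, Cd247, Zbtb16, Klrb1c and Il2rb) were above 0 in each group.

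In the thymus, cells of DN origin held far less RNA of Il17rb and Il23r, the chains of NKT2 and NKT17 cells, and somewhat less of both IL-12 receptor chains. Il17ra was higher, and the IL-18 receptor chains did not pass the test. Genes whose mean reached 1 FPKM were tested with limma on log2(FPKM + 1), with Benjamini-Hochberg adjustment over all genes tested and a threshold of 0.05. Of the 10 chains 7 reached that level in the thymus, of which 4 were lower and 1 higher in cKO. Among all 9097 genes tested there, 15.7% passed, 13.1% as lower and 2.64% as higher. The median change of the 7 chains was -0.54 on the log2 scale, beside -0.16 for all genes tested. In the liver 8 chains were tested and only Il6ra passed, as lower in cKO, which is below the 27.2% of 9591 genes that passed in either direction (19.7% lower, 7.49% higher). The median change of these 8 chains was -0.19, beside -0.11 for all genes. Log2 changes of single genes below are given relative to that median gene, since higher calls made up 16.8% of all thymus calls but 55.2% with median-ratio scaling, and 27.5% of all liver calls but 49.3%. The p-values belong to the changes as fitted, before the median gene is subtracted. By their values alone, without a test, 6 of the 10 chains did not overlap between the thymus groups and 3 of 10 between the liver groups, beside 42.9% and 44.3% of tested genes. Unlike these shares, the chain counts include chains below the tested level, such as Il1r1, which did not overlap in the thymus. Because Il23r in the thymus and Il6ra in the liver were tested only through the level in YFP+ cells, counts over tested chains describe these tables and support nothing further.

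**Figure D1:**
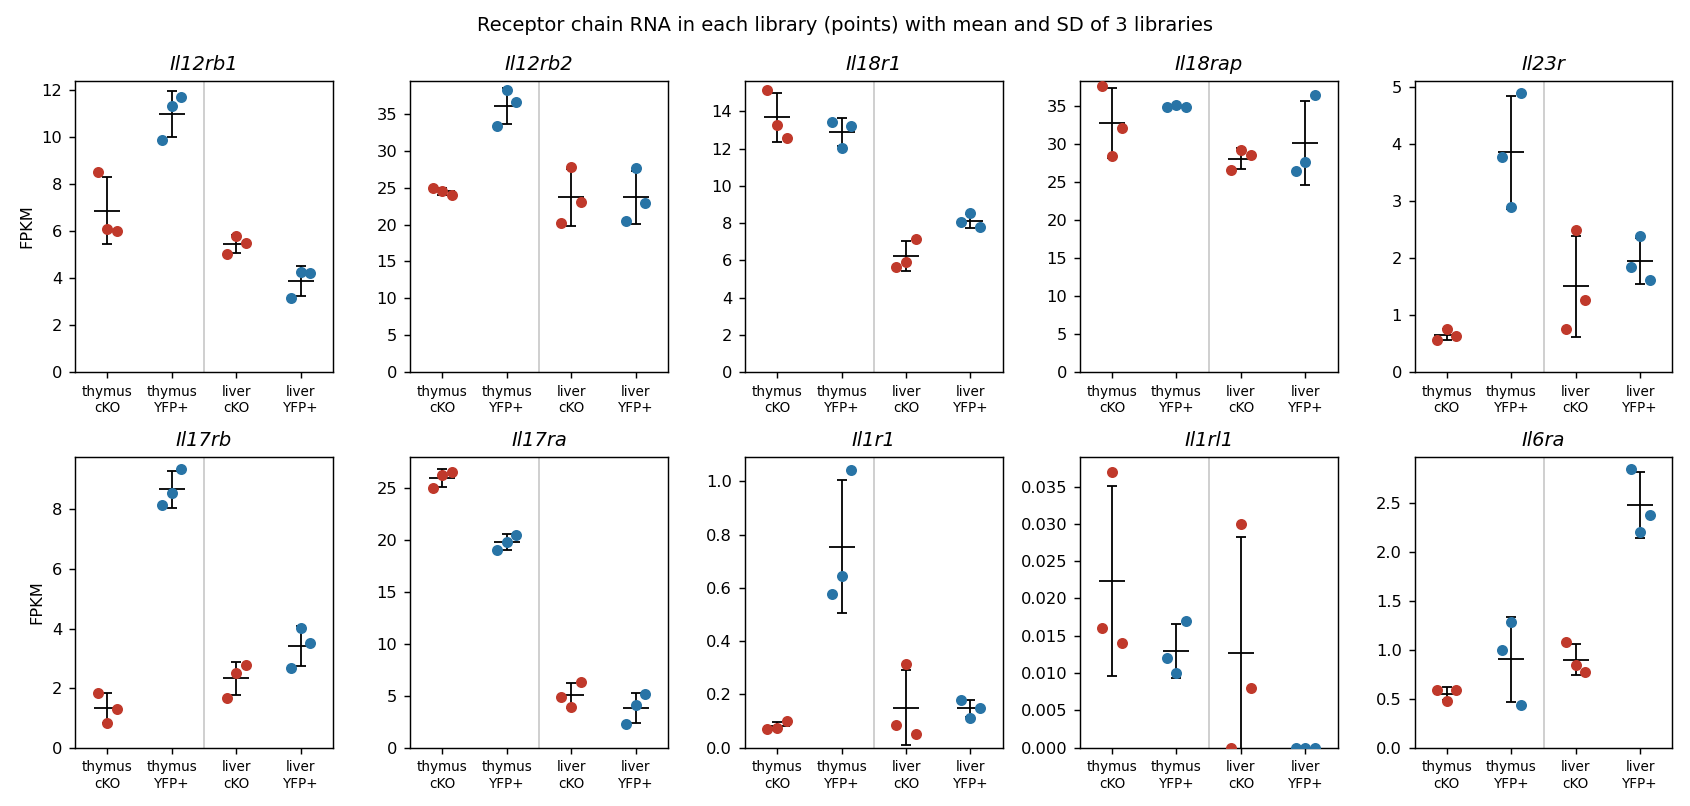
FPKM of the 10 receptor chains (y axis, linear, from 0) in each of the 12 libraries, with cKO in red and YFP+ in blue, and a horizontal mark and bar for the mean and SD of 3 libraries. Thymus and liver, on either side of the grey line, were normalized separately. Il17rb and Il23r lie apart between the thymus groups and overlap between the liver groups, and Il6ra lies apart in the liver.

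Il17rb, the chain that binds IL-25, showed the largest change of the tested chains. It was at 1.85, 0.845 and 1.31 FPKM in the 3 thymus cKO libraries and at 8.14, 8.55 and 9.34 in the YFP+ libraries. The groups did not overlap, and the YFP+ mean was 6.50 times the cKO mean (1.33 ± 0.503 against 8.68 ± 0.614 FPKM, mean ± SD, n = 3). The log2 change was -1.91 ± 0.15 (SE, as throughout for log2 changes), with an adjusted p of 1.94e-04 in limma. In bulk RNA of sorted cells, fewer cells that carry a receptor and less of its RNA per cell cannot be told apart. In the liver Il17rb was at 1.68, 2.52 and 2.77 FPKM in cKO and at 2.69, 4.03 and 3.53 in YFP+, and the groups overlapped (log2 change -0.30 ± 0.18, limma adjusted p = 0.122).

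Il17ra, the partner that IL-17RB shares with other receptors of the family, went the other way in the thymus. It was at 24.96, 26.2 and 26.6 FPKM in cKO and at 19.0, 19.8 and 20.5 in YFP+, without overlap, which is 1.31 times higher in cKO (log2 change 0.54 ± 0.07, limma adjusted p = 0.0142). Leaving out cKO replicate 3 (adjusted p = 0.0622), YFP+ replicate 1 (0.0576) or YFP+ replicate 2 (0.0543) ended this call, and the direction was the same in all 12 alternatives (adjusted p from 0.00224 to 0.0622). In the liver Il17ra was at 4.93, 3.92 and 6.30 FPKM in cKO and at 2.27, 4.07 and 5.16 in YFP+, with overlap (log2 change 0.46 ± 0.24, limma adjusted p = 0.315). The thymus cKO cells thus held more RNA of the shared chain and less of the chain specific to IL-25.

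Il23r, the chain specific to IL-23, was at 0.570, 0.762 and 0.632 FPKM in thymus cKO and at 3.78, 2.90 and 4.89 in thymus YFP+. The groups did not overlap, and the YFP+ mean was 5.89 times the cKO mean. The log2 change was -1.37 ± 0.15 (limma adjusted p = 7.13e-04), and -2.17 with a pseudocount of 0.1 in place of 1, because the pseudocount understates changes of low genes. In the liver Il23r was at 0.759, 2.49 and 1.26 FPKM in cKO and at 1.84, 2.39 and 1.61 in YFP+. The liver cKO libraries thus spanned the YFP+ range (log2 change -0.18 ± 0.25, limma adjusted p = 0.424), and without liver cKO replicate 1, the lowest, the value was 0.04. Markers of gamma-delta T cells, which also carry IL-23R, were in the tables for 3 of 5 listed genes (Sox13, Cd163l1 and 5830411N06Rik), none at 0. They summed to 11.5 to 13.2 FPKM in thymus cKO and 10.3 to 13.3 in thymus YFP+, and to 19.6 to 22.8 against 3.07 to 5.31 in the liver, where all 3 passed as higher in cKO. The sort was for cells positive for the T cell receptor beta chain and CD1d dimer. The part of gamma-delta T cells in the liver level of Il23r was not tested. The 3 regulatory T cell markers summed to 0.713 to 0.902 FPKM in thymus cKO and 3.73 to 4.12 in thymus YFP+. Most of that difference was Ikzf2, at means of 0.506 against 3.51 FPKM, while Il2ra was at 0.262 against 0.388. Foxp3 was near the floor and lay the other way, at 0.00867 against 0.00167, with 2 thymus YFP+ libraries at 0. In the liver the 3 markers summed to 2.14 to 2.53 against 6.67 to 7.34. The part of regulatory T cells in the Il23r and Il17rb changes was not tested.

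The 2 chains of the IL-12 receptor were lower in thymus cKO by less. Il12rb2, the chain through which STAT4 is recruited, was at 24.96, 24.5 and 24.0 FPKM in cKO and at 33.4, 38.2 and 36.6 in YFP+. These groups did not overlap, and YFP+ was 1.47 times higher (log2 change -0.37 ± 0.08, limma adjusted p = 0.00406). In the liver Il12rb2 had almost the same mean in both groups, 23.7 ± 3.84 in cKO and 23.7 ± 3.62 FPKM in YFP+ (SD, n = 3), from 20.2, 27.8 and 23.0 against 20.5, 27.6 and 22.9 (limma adjusted p = 0.994).

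Il12rb1, the chain common to the IL-12 and IL-23 receptors, was at 8.51, 6.10 and 5.99 FPKM in thymus cKO and at 9.89, 11.3 and 11.7 in thymus YFP+. The groups lay apart, with cKO replicate 1 nearest to YFP+ (YFP+ mean 1.60 times higher, log2 change -0.45 ± 0.13, limma adjusted p = 0.0213). That call depended on the setting: over 12 alternatives the adjusted p ran from 0.00170 to 0.0876 and 7 missed the threshold. They are median-ratio scaling (0.0539), no filter on low values (0.0638), the replicate block (0.0545) and the fits that left out replicate 2 or 3 of cKO (0.0639 and 0.0740) or of YFP+ (0.0688 and 0.0876). In the liver Il12rb1 lay the other way, at 5.02, 5.78 and 5.496 FPKM in cKO and 3.15, 4.24 and 4.23 in YFP+, again without overlap. There its log2 change of 0.52 ± 0.14 missed the threshold (limma adjusted p = 0.0575), passing in 3 of 12 alternatives: median-ratio scaling (0.0230), quantile normalization (0.0189) and array weights (0.0422).

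Il12rb2 and Il23r lie next to each other among the protein-coding genes of RefSeq on GRCm38.p6 and changed by different amounts in the thymus. Serbp1, on the side of Il12rb2, an RNA-binding protein gene, was at 8.57 ± 0.0967 against 9.26 ± 0.479 FPKM in the thymus (cKO against YFP+, SD, n = 3) and did not pass (limma adjusted p = 0.364). RefSeq promoter windows on GRCm38.p6 were matched by symbol for 8 of the 10 chains, all but Il12rb1 and Il17ra. They are printed from 250 bases before to 30 after the start site for the 4 chains on which the contrast turns: the neighbours Il23r and Il12rb2, Il17rb, also lower in thymus cKO, and Il18rap, which did not pass the test. The build of the deposited values is mm9, so these coordinates do not apply to it. Motifs were searched on both strands. AGGTGTGA stands for the T-box factors such as T-bet, while both AGATAA and the related letters TGATAA stand for the GATA factors. The STAT motif was TTCNNNGAA, with N for any base. For RUNX factors the letters were TGTGGT, and for nuclear receptors they were AGGTCA. No match overlapped another in these 4 windows, and matches are in capitals.
Il23r (GRCm38.p6 chr6:67491826-67492105, minus strand): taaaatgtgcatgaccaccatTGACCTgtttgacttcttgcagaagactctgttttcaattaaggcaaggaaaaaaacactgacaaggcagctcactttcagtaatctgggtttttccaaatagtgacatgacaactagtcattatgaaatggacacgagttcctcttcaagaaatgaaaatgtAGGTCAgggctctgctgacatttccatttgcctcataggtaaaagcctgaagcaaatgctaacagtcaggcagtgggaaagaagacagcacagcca
Il12rb2 (GRCm38.p6 chr6:67376159-67376438, minus strand): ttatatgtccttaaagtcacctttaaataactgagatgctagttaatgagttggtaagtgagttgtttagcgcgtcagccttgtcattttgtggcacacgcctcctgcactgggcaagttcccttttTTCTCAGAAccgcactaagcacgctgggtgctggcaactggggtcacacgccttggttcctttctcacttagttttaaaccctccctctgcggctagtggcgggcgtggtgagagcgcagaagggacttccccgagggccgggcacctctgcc
Il17rb (GRCm38.p6 chr14:30008867-30009146, minus strand): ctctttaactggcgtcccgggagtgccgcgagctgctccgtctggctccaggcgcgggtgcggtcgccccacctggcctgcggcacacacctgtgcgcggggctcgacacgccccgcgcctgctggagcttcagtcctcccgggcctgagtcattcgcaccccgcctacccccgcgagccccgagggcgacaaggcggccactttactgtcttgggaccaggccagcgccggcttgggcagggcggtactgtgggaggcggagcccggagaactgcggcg
Il18rap (GRCm38.p6 chr1:40515112-40515391, plus strand): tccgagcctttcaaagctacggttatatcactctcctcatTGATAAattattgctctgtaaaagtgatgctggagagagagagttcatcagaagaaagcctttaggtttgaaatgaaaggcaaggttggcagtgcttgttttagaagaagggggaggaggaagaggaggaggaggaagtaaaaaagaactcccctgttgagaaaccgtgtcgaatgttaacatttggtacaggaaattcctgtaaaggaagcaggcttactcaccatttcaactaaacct
The Il23r window held AGGTCA at -66 and its reverse complement TGACCT at -229, counted from the start site. Of 32851 RefSeq promoter windows of the same length, 15.3% held at least 1 match to that motif. The Il12rb2 window held TTCTCAGAA at -123, a match to the STAT motif found in 7.83% of windows, and the Il18rap window held TGATAA at -210, found in 8.69%. No match to any of the 6 motifs was in the Il17rb window, nor to AGGTGTGA, found in 1.22% of windows, in any of the 4. These matches describe letters, not binding.

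The IL-18 receptor did not pass in either tissue. Il18rap was the most abundant or second most abundant of the 10 chains in each group, at 37.6, 28.4 and 32.1 FPKM in thymus cKO and 34.8, 35.1 and 34.9 in thymus YFP+ (limma adjusted p = 0.479), and at 26.5, 29.2 and 28.5 against 26.4, 27.6 and 36.4 in the liver (limma adjusted p = 0.654). The groups overlapped in both tissues, and the sign of the change depended on the setting. Il18r1 was at 15.1, 13.3 and 12.6 FPKM in thymus cKO and 13.4, 12.02 and 13.2 in thymus YFP+ (limma adjusted p = 0.543). In the liver Il18r1 was at 5.62, 5.91 and 7.15 FPKM in cKO and 8.03, 8.52 and 7.82 in YFP+, without overlap, but missed the threshold (log2 change -0.23 ± 0.12, limma adjusted p = 0.0661). It passed only with array weights among 12 alternatives (adjusted p from 0.0213 to 0.193).

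The other IL-1 family chains were low. Il1r1, which NKT17 cells carry, was at 0.0700, 0.0730 and 0.0990 FPKM in thymus cKO and at 0.578, 0.645 and 1.04 in thymus YFP+, so the groups lay apart and the YFP+ mean was 9.36 times higher. Its mean was below the tested level. With no filter on low values it passed in the thymus (log2 change -0.68, limma adjusted p = 0.0254). In the liver Il1r1 was at 0.0870, 0.313 and 0.0530 against 0.179, 0.113 and 0.151 FPKM, with overlap. Il1rl1, the ST2 chain of type 2 lymphocytes and mast cells, did not exceed 0.037 FPKM in any library and was listed at 0 in the 3 liver YFP+ libraries and in liver cKO replicate 1. At such levels no difference was detectable. Il1rap, the accessory chain that both of these receptors need, did not exceed 0.347 FPKM.

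In the mouse genome these IL-1 family chains form 1 cluster. RefSeq orders its protein-coding genes as Il1r2, Il1r1, Il1rl2, Il1rl1, Il18r1, Il18rap and Slc9a4. Within this cluster the thymus libraries ranged from Il18rap, at 28.4 FPKM or more, to Slc9a4, a sodium-proton exchanger gene at no more than 0.018. Il1rl2, the IL-36 receptor chain, was at 1.82 ± 0.292 against 1.95 ± 0.361 FPKM (cKO against YFP+, SD, n = 3) in the thymus and 1.74 ± 0.678 against 1.14 ± 0.405 in the liver, and passed in neither (limma adjusted p = 0.723 and 0.262). Il1r2, the decoy receptor for IL-1, was at no more than 0.042 FPKM in the thymus. In the liver it was at 5.14, 6.50 and 6.94 FPKM in cKO and at 8.86, 9.08 and 8.81 in YFP+ (log2 change -0.36 ± 0.13, limma adjusted p = 0.0258), a call lost in 6 of 12 alternatives (adjusted p from 0.00940 to 0.0822). Among them were the fits without liver cKO replicate 1 (0.0805), liver cKO replicate 2 (0.0591) or liver YFP+ replicate 2 (0.0822). Of the 7 genes of the cluster, Il1r1 was the 1 whose thymus groups did not overlap, beside 42.9% of all genes tested in the thymus. Il1r1 itself was below the tested level, and Il1r2, Il1rl1 and Slc9a4 were near 0 there.

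Il6ra, the IL-6 binding chain of naive T cells, myeloid cells and hepatocytes, was the 1 chain to pass in the liver. The liver cKO libraries read 1.08, 0.843 and 0.776 FPKM, the liver YFP+ libraries 2.85, 2.21 and 2.38. The groups did not overlap, YFP+ was 2.76 times higher, and the log2 change was -0.76 ± 0.14 (limma adjusted p = 0.00363, and from 0.00136 to 0.0173 over 12 alternatives, all past the threshold). In the thymus Il6ra was below the tested level, at 0.593, 0.475 and 0.590 FPKM in cKO and 0.993, 1.28 and 0.434 in YFP+, with overlap. Markers of several other cells moved with Il6ra in the liver. A marker is called at 0 here only where all 3 libraries of a group read 0. The 8 DP thymocyte markers summed to 23.1 to 24.5 FPKM in cKO and 78.6 to 87.9 in YFP+, with Rag2 at 0 in cKO. The 9 myeloid markers summed to 29.3 to 35.2 against 77.3 to 106, and 4 of 5 listed neutrophil markers to 40.3 to 46.5 against 78.2 to 109. No marker of either list was at 0 in a whole group, but C1qc and Camp each read 0 in 2 liver cKO libraries. The 5 B cell markers summed to 1.92 to 3.34 against 10.4 to 11.7, with Pax5 at 0 in cKO, and the 6 erythroid markers to 9.83 to 14.97 against 641 to 742. Hepatocyte markers, 5 of 5, summed to 2.08 to 2.87 against 1.44 to 2.27, with Ttr at 0 in both groups and Alb and Apoa1 at 0 in YFP+. The 7 mast cell and basophil markers summed to 2.19 to 3.15 against 6.68 to 7.38, with Mcpt8 and Tpsb2 at 0 in cKO and Mcpt4, Mcpt8 and Fcer1a at 0 in YFP+. The regulatory T cell sums are given above. The sort was negative for CD4, CD8 and CD45R. Liver means of Cd4 were 1.90 FPKM in cKO and 8.44 in YFP+, of Cd8b1 0.844 and 13.1, and of the B cell marker Cd79b 2.25 and 6.17. The part of all these cells in the Il6ra level was not tested.

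Markers of other cells were also summed in the thymus, whose levels are not compared with those of the liver. The sums did not exceed 2.02 FPKM for B cells, 2.24 for myeloid cells, 0.397 for neutrophils, 0.883 for mast cells and basophils, 0.920 for endothelium and 0.352 for hepatocytes. DP thymocyte markers summed to 6.25 to 8.11 FPKM in cKO and 11.9 to 16.7 in YFP+, most of it Cd1d1 and Cd4, and Rag2 was at 0 in YFP+. Erythroid markers summed to 0.179 to 108 in cKO and to no more than 0.851 in YFP+. The library high in them, cKO replicate 1, is also the cKO library highest in Il12rb1, Il12rb2, Il18r1, Il18rap, Il17rb and Il6ra. Its lead over the next cKO library was small in Il12rb2 (24.96 against 24.5 FPKM) and Il6ra (0.593 against 0.590). The same library is the lowest cKO library in Il23r, Il17ra and Il1r1. The part of red cells in these values was not tested.

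**Figure D2:**
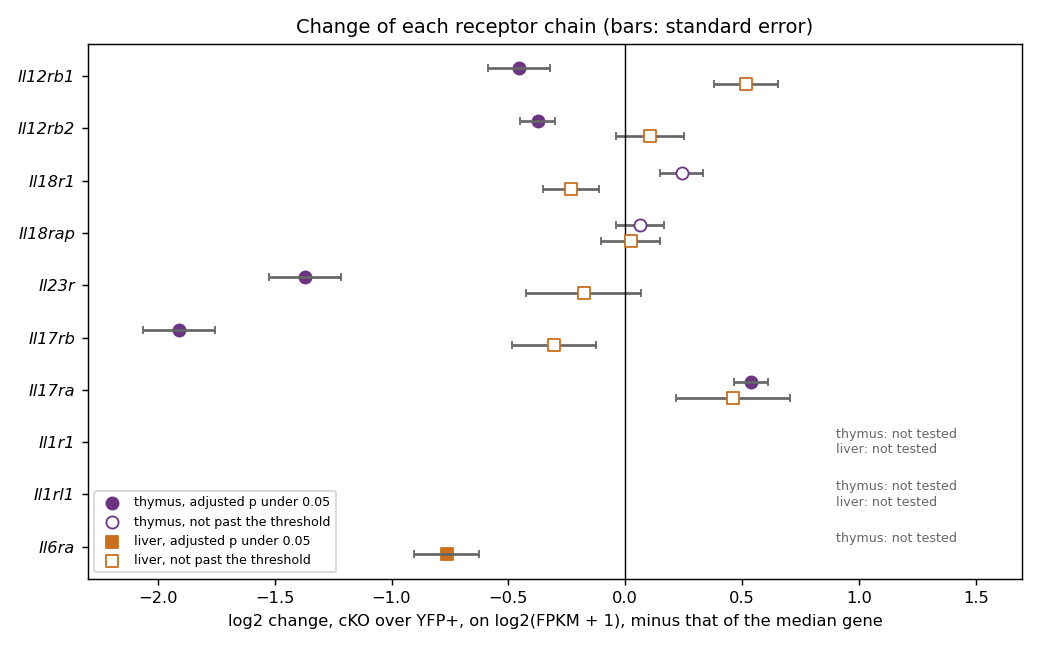
Log2 change of each tested chain, cKO over YFP+, on log2(FPKM + 1) minus the change of the median gene (x axis), for thymus (circles) and liver (squares), with bars for the standard error and filled symbols for limma adjusted p under 0.05. Il17rb and Il23r lie farthest to the left in the thymus at -1.91 and -1.37, and Il12rb1 lies on opposite sides of 0 in the 2 tissues.

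The change between cKO and YFP+ differed between tissues for 3 of the 8 chains tested, all with a higher change in the liver, beside 15.1% of 9739 genes and 9.14% with a higher change there. This was tested as the liver change minus the thymus change, fitted on all 12 libraries, in which a constant offset between the tables cancels. For Il17rb this difference was 1.60 ± 0.25 on the log2 scale (limma adjusted p = 0.00120), for Il23r 1.19 ± 0.31 (adjusted p = 0.0196) and for Il12rb1 0.97 ± 0.19 (adjusted p = 0.00457). The Il17rb and Il12rb1 calls held in all 18 other settings, and that of Il23r was lost with no filter on low values (adjusted p = 0.0552; range 0.00748 to 0.0552). Il12rb2 (0.48 ± 0.17, adjusted p = 0.0561), Il18r1 (-0.48 ± 0.14, adjusted p = 0.0724) and Il6ra (-0.66 ± 0.22, adjusted p = 0.0825) missed the threshold. If the description field rather than the titles is right for the liver, the Il17rb and Il23r differences stay called (2.23, adjusted p = 2.53e-05, and 1.56, adjusted p = 0.00105), while that of Il12rb1 is lost (-0.05, adjusted p = 0.423). Under that reading Il12rb2 and Il6ra pass instead (0.28, adjusted p = 0.0299, and 0.88, adjusted p = 0.00203).

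Ratios of the 2 chains of a receptor within a library do not depend on how that library was scaled. The Il17rb to Il17ra ratio was 0.0741, 0.0322 and 0.0493 in thymus cKO and 0.428, 0.432 and 0.455 in thymus YFP+. It was 0.341, 0.643 and 0.439 in liver cKO and 1.18, 0.989 and 0.684 in liver YFP+, so the groups lay apart in both tissues. The Il23r to Il12rb1 ratio was 0.0670, 0.125 and 0.105 in thymus cKO against 0.382, 0.256 and 0.417 in YFP+, without overlap. In the liver it was 0.151, 0.431 and 0.229 against 0.585, 0.563 and 0.382, with overlap. The Il12rb2 to Il12rb1 ratio overlapped in the thymus, at 3.65 ± 0.621 against 3.29 ± 0.146 (cKO against YFP+, SD, n = 3). In the liver it lay apart at 4.34 ± 0.414 against 6.15 ± 0.635. The Il18rap to Il18r1 ratio was 2.39 ± 0.220 against 2.72 ± 0.173 in the thymus, without overlap, and 4.55 ± 0.497 against 3.73 ± 0.808 in the liver, with overlap. With 3 libraries against 3 the two-sided exact permutation test cannot go below 0.10. That value was reached for the 5 ratios without overlap (adjusted p = 0.16 over the 8 ratios), and the other 3 gave 0.20 to 0.40.

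**Figure D3:**
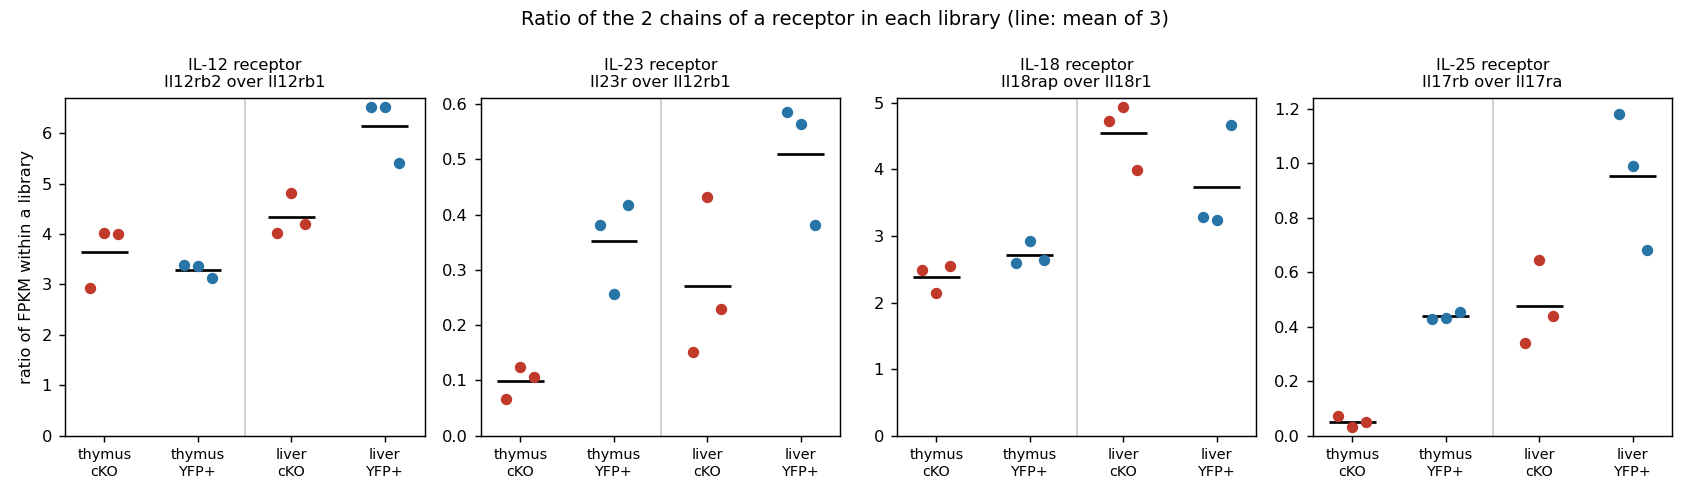
Ratio of the FPKM of the 2 chains of a receptor within each library (y axis, linear, from 0), with cKO in red, YFP+ in blue and a line for the mean of 3 libraries. The Il17rb to Il17ra ratio stays at or below 0.0741 in thymus cKO and starts at 0.428 in thymus YFP+, and the Il12rb2 to Il12rb1 ratio overlaps in the thymus and lies apart in the liver.

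Within each group the chains of NKT1 cells ranked high and those of NKT17 cells low. In thymus YFP+ the order by mean FPKM was Il12rb2 (36.1), Il18rap (34.9), Il17ra (19.8), Il18r1 (12.9), Il12rb1 (10.98), Il17rb (8.68), Il23r (3.86), Il6ra (0.904), Il1r1 (0.755) and Il1rl1 (0.0130). The ranges of neighbours in that order overlapped for Il12rb2 and Il18rap and for Il6ra and Il1r1, and lay apart for the rest. In thymus cKO Il18rap led (32.7), Il12rb2 came after Il17ra, and only Il23r (0.655) and Il6ra (0.553) overlapped as neighbours. In liver YFP+ Il18rap (30.1) and Il12rb2 (23.7) overlapped at the top, and Il18r1 (8.12) lay apart from both neighbours. Below it Il12rb1 (3.87), Il17ra (3.83), Il17rb (3.41), Il6ra (2.48) and Il23r (1.95) overlapped as neighbours, and Il23r lay apart from Il1r1. In liver cKO Il18rap (28.1) and Il12rb2 (23.7) led as well. Next came Il18r1 (6.23), Il12rb1 (5.43) and Il17ra (5.05), which overlapped as neighbours, and Il17ra lay apart from Il17rb.

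Other genes of these pathways were read from lists of receptors, ligands, signalling arms and output genes. Of all genes tested in the thymus, 13.1% were called lower in cKO and 2.64% higher. In the thymus 1 of 3 tested IL-1 family receptors and decoys passed: Sigirr, an inhibitory receptor of the IL-1 and IL-18 pathways, was lower at 18.5 ± 1.76 against 26.8 ± 1.53 FPKM (cKO against YFP+, SD, n = 3; limma adjusted p = 0.00998). The 1 tested gp130 family receptor, Il27ra, was at 54.0 ± 9.57 against 65.2 ± 1.20 FPKM (limma adjusted p = 0.124), and no other IL-17 receptor chain and no ligand gene reached the tested level. Of 8 JAK-STAT genes 3 were lower, Jak1, Jak2 and Stat3, at adjusted p of 0.0418 to 0.0498. Each lost its call in at least 9 of 12 alternatives, median-ratio scaling and every fit without 1 library other than cKO replicate 1 included. Stat4, the STAT of the IL-12 receptor, was at 16.9 ± 4.77 against 25.1 ± 2.46 FPKM and missed the threshold (limma adjusted p = 0.0567), passing with array weights (0.00921) and without cKO replicate 1 (0.00255). Of 12 MyD88 and IRAK genes 1 was lower, Tab2, an adaptor of the kinase TAK1, at 6.35 ± 0.266 against 8.91 ± 0.666 FPKM (limma adjusted p = 0.0165). It lost its call in 5 of 12 alternatives, among them the fits without cKO replicate 3 (0.0656), YFP+ replicate 2 (0.0639) or YFP+ replicate 3 (0.0624). Act1 arm genes gave 0 calls of 4 in limma, with 0 at an unadjusted p under 0.05.

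In the thymus the called type 17 and type 2 genes were lower in cKO, and genes that IL-12 and IL-18 induce gave calls in both directions. Among all genes tested there, 13.1% were called lower and 2.64% higher. Of 11 listed type 17 genes 7 were tested and 6 of these were lower in cKO (median log2 change -1.32 as fitted, beside -0.16 for all genes). Ahr, the aryl hydrocarbon receptor, changed by -2.44 ± 0.15 and Blk, a Src family kinase, by -1.80 ± 0.19. Il17a did not exceed 0.251 FPKM in the thymus. Of 8 listed type 2 genes 3 were tested, and all 3 were lower (median -0.78): Il4 at 0.432, 0.969 and 0.617 against 4.44, 4.20 and 4.02 FPKM, Ccr8, a chemokine receptor, by -0.61 ± 0.08, and Gata3, the type 2 transcription factor, by -0.12 ± 0.07 (limma adjusted p = 0.0323), a call lost in 8 of 12 alternatives and in every fit without 1 library other than cKO replicate 1. Of 9 genes that IL-12 and IL-18 induce, 3 were higher and 1 lower (median 0.01). Ccl5, a chemokine, rose by 2.33 ± 0.16 and Ifng by 1.82 ± 0.28, the latter from 18.7, 24.3 and 11.5 FPKM in YFP+ to 41.0, 71.8 and 63.2 in cKO (limma adjusted p = 0.00824). Gadd45b, which IL-12 and IL-18 induce, rose by 0.90 ± 0.20 (limma adjusted p = 0.0416) but lost its call in 7 of 12 alternatives, and passed without cKO replicate 1 alone among fits without 1 library. Tbx21, which encodes T-bet, was at 75.8, 62.9 and 58.2 against 70.2, 78.1 and 73.4 FPKM, with overlap (limma adjusted p = 0.241). Zbtb16 (PLZF, needed for the innate-like programme of NKT cells) read 3.15, 3.84 and 4.27 against 11.01, 12.2 and 13.5 FPKM (limma adjusted p = 2.38e-04).

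**Figure D4:**
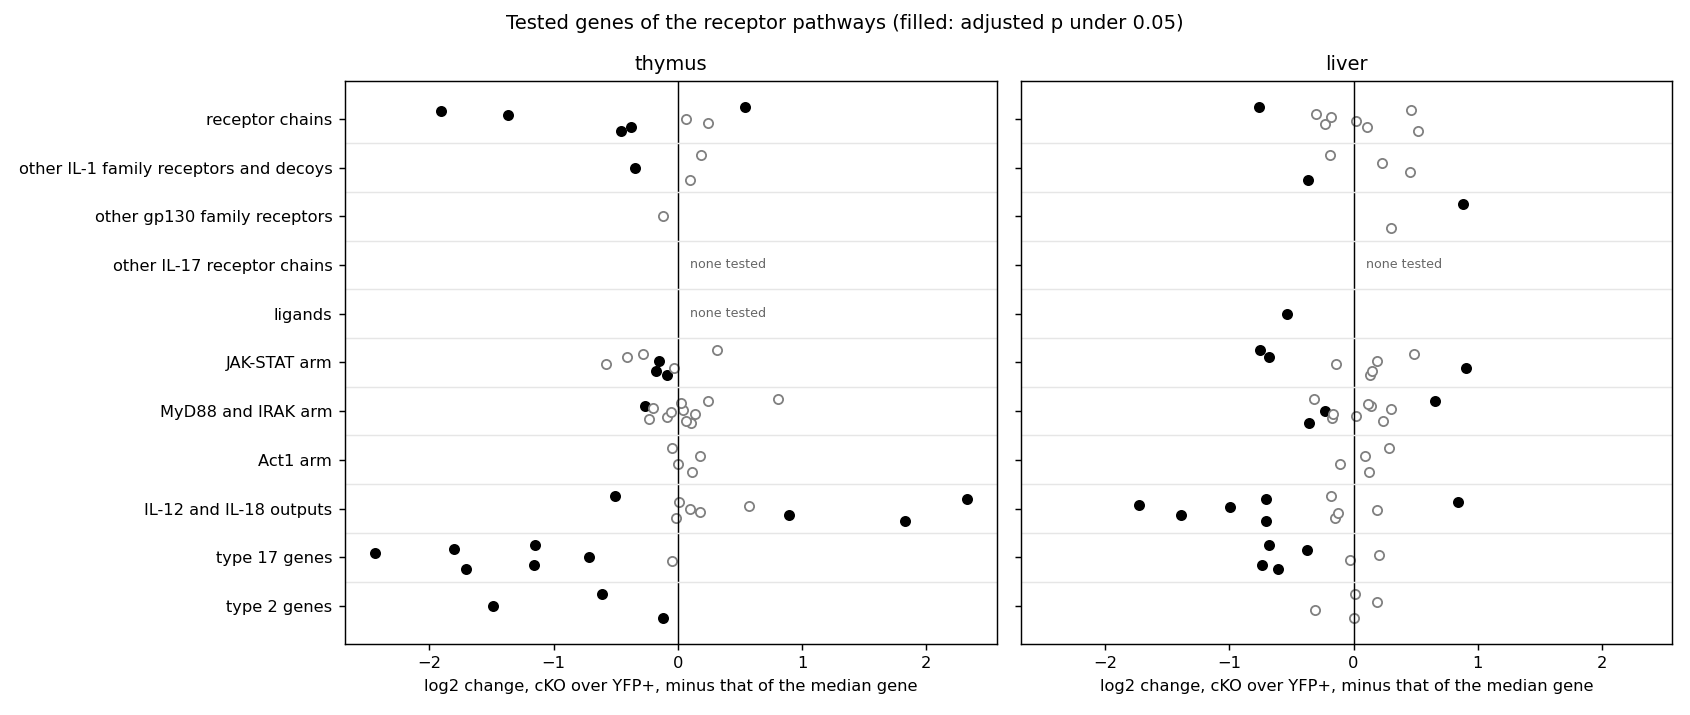
Log2 change, cKO over YFP+, minus that of the median gene (x axis), of each tested gene of the receptor chains and of 10 pathway lists (rows) in thymus and liver, filled where the limma adjusted p was under 0.05. In the thymus 6 of 7 type 17 genes and 3 of 3 type 2 genes are filled on the left, and in the liver 4 of 6 and 0 of 4. Among all tested genes 13.1% in the thymus and 19.7% in the liver passed as lower in cKO.

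In the liver both signalling arms gave calls in both directions. Of all genes tested in the liver, 19.7% were called lower in cKO and 7.49% higher. Of 8 JAK-STAT genes 2 were lower and 1 higher in cKO. Stat4 was at 17.8, 17.7 and 17.01 FPKM in cKO and 33.6, 29.1 and 30.4 in YFP+, without overlap (log2 change -0.68 ± 0.09, limma adjusted p = 7.77e-04), while Il12rb2, the chain that recruits it, had equal means. Tyk2, the kinase bound to IL-12Rβ1, was higher by 0.91 ± 0.18 (limma adjusted p = 0.0134, lost without cKO replicate 2 at 0.0523), and Socs3, an inhibitor of cytokine signalling, lower by -0.75 ± 0.20 (adjusted p = 0.0159). The Socs3 call was lost in 4 of 12 alternatives, among them the fits that left out replicate 1 or 2 of cKO (0.0592 and 0.0589) or replicate 2 of YFP+ (0.0641). Of 11 MyD88 and IRAK genes 2 were lower and 1 higher: Myd88, the adaptor itself, by -0.36 ± 0.08 (limma adjusted p = 0.00463), Tollip, an inhibitor of IRAK kinases, by -0.23 ± 0.09 (adjusted p = 0.0306) and the kinase gene Ikbkb by 0.66 ± 0.12 (adjusted p = 0.0113). The Tollip call was lost in 8 of 12 alternatives, among them the fits without any of 5 single libraries (adjusted p from 0.00631 to 0.159 over all 12). Act1 arm genes gave 0 calls of 4 in limma, with 1 at an unadjusted p under 0.05.

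Of the 10 tested IL-12 and IL-18 output genes in the liver, 5 were lower in cKO and 1 higher (median -0.55 as fitted, beside -0.11 for all genes). Among all genes tested there, 19.7% were called lower and 7.49% higher. Ifng was at 34.0, 31.1 and 32.9 FPKM in cKO and 59.6, 56.4 and 57.8 in YFP+ (log2 change -0.70 ± 0.08, limma adjusted p = 3.66e-04), opposite to the thymus. The chemokines Ccl4 and Ccl3 changed by -1.73 ± 0.19 and -0.996 ± 0.21 and Gadd45b by -1.39 ± 0.16. Of 6 tested type 17 genes 4 were lower, among them Blk by -0.68 ± 0.12 (limma adjusted p = 0.00340) and Rora, a nuclear receptor gene, by -0.74 ± 0.27 (adjusted p = 0.0464, past the threshold in 3 of 12 alternatives). Every fit without 1 liver library other than YFP+ replicate 1 lost the Rora call. Il17a was at 0 in the 3 liver cKO libraries and at 0.270, 0.297 and 0.397 FPKM in YFP+. Type 2 genes gave 0 calls of 4 in limma, with 0 at an unadjusted p under 0.05, and neither Il4 (12.5 ± 3.25 against 16.9 ± 3.36 FPKM, SD, n = 3; limma adjusted p = 0.168) nor Gata3 (adjusted p = 0.467) passed. Tbx21 (adjusted p = 0.159) and Zbtb16 (adjusted p = 0.408) did not pass in the liver either.

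Among receptors and ligands of the liver, 3 genes known from neutrophils and monocytes passed, beside 27.2% of all genes tested there. They are Il1r2, given above, Il1b, the IL-1β gene and the 1 tested ligand, and Csf3r, the G-CSF receptor and 1 of 2 tested gp130 family genes. Il1b was at 5.90 ± 1.27 against 9.76 ± 1.59 FPKM (cKO against YFP+, SD, n = 3; log2 change -0.54 ± 0.17, limma adjusted p = 0.0236), a call lost in 7 of 12 alternatives, among them each fit without 1 library other than cKO replicate 3 and YFP+ replicate 2. Csf3r went the other way, at 24.1 ± 1.24 against 13.7 ± 1.56 FPKM (log2 change 0.88 ± 0.11, adjusted p = 0.00181). The neutrophil marker sums given above, 40.3 to 46.5 in cKO and 78.2 to 109 in YFP+, thus moved with Il1r2 and Il1b and against Csf3r.

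For 4 chains the genes nearest in profile were found by the root mean square difference of log2(FPKM + 1), centred per tissue, over the 12 libraries and the 8372 genes that reached the tested level in both tissues. Nearest to Il17rb were Litaf (0.156), 1300014I06Rik (0.184) and Pmepa1 (0.200), against a spread of Il17rb itself of 0.772 by the same measure. Litaf, for instance, had means of 12.4 and 47.3 FPKM in thymus cKO and YFP+ and of 55.6 and 68.2 in the liver. Nearest to Il23r, with a spread of 0.607, were Tex2 (0.222), Tgfbr3 (0.244) and Chad (0.245). For Il12rb2 (spread 0.231) Slc35a5 (0.106), Gypc (0.108) and Csnk1g2 (0.108) came first, and for Il18rap (spread 0.139) Haus6 (0.0596), Uhrf1bp1l (0.0632) and Gtpbp1 (0.0649). The last 2 chains vary little, and how many other genes lie about as near was not counted.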

How the data were processed

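The 12 libraries are bulk RNA-seq, grouped by title. The authors deposited FPKM, each tissue in its own table. TopHat2 2.8.0, Cufflinks 2.1.1 and mm9 are named in the submitters' processing notes. Per the labels' protocols, cDNA was made from total RNA with a SMARTer Ultra Low Input kit and libraries with a TruSeq or a ThruPLEX kit, without saying which library had which. No source used here gives the use of strand, and genes that overlap cannot be told apart. No library was a copy of another (at most 1.83% equal values above 0 within a group), and 0 columns were left unmapped.

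The test was limma-trend (limma 3.58.1, R 4.3.3) on log2(FPKM + 1), checked on simulated data, with genes of a mean of at least 1 FPKM and a Benjamini-Hochberg adjusted p under 0.05. FPKM hold no read totals, so depth and counting error are unknown. Alternatives were a pseudocount of 0.1, no filter, median-ratio scaling, quantile normalization, a replicate block, array weights and each library left out. For the difference between tissues, the liver groups of the description field were added after seeing the data. The members, gene lists and tests were chosen with earlier results of these data known. Named are the 10 chains, Rag1, Rag2, Tbx21, Gata3, Zbtb16, Ifng, Il4, Il17a and Stat4, genome neighbours, up to 3 genes per pathway list and tissue that passed without overlap, and the 3 nearest profiles of 4 chains. NK cell and ILC1 markers summed to 153 to 192 FPKM in thymus cKO, 161 to 162 in thymus YFP+, 360 to 373 in liver cKO and 340 to 432 in liver YFP+. Single markers went opposite ways. Klre1 was called higher in cKO in thymus (means 114 against 49.7 FPKM) and liver (194 against 139). Gzma was called lower in both (60.0 against 110, and 165 against 235). Ncr1 was called higher in the liver (2.19 against 0.318) and Fcgr3 lower in the thymus (1.07 against 2.12). The part of these cells in the chain levels was not tested. Some genes of these lists are not reported here.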

Additional observations from a re-analysis of the deposited data

Results flagged for a closer look

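The change between cKO and YFP+ differed between liver and thymus, by the limma fit on all 12 libraries, for the 21 genes given here (adjusted p under 0.05), taken from the chains, the transcription factor and cytokine genes, the pathway genes and the genome neighbours named by rule. Marker genes and other list members were not screened. Values are the liver change minus the thymus change on the log2 scale as fitted, before the median gene is subtracted. Among the receptor chains the difference was 1.03 for Il12rb1 (adjusted p = 0.00457), 1.25 for Il23r (0.0196) and 1.66 for Il17rb (0.00120). Il23r and Il17rb passed as lower in thymus cKO and did not pass in the liver. Il12rb1 passed as lower in the thymus and missed the threshold in the liver.

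Among transcription factor and type 17 genes the difference was positive for Zbtb16 at 1.30 (limma adjusted p = 0.00160), Ahr at 2.12 (5.00e-05) and Blk at 1.18 (0.00772). It was also positive for the type 2 genes Il4 at 1.23 (0.0102) and Ccr8 at 0.68 (0.00246). Zbtb16, Il4 and Ccr8 passed as lower in thymus cKO and did not pass in the liver. Among outputs of IL-12 and IL-18 the difference was negative: Ifng at -2.47 (5.41e-04), Gadd45b at -2.23 (3.71e-04), Ccl4 at -1.68 (0.0324), Ccl3 at -1.51 (0.0102) and Ccl5 at -1.43 (0.00100). The Ccl4 call was lost in 7 of 18 alternatives (adjusted p up to 0.0850): with a pseudocount of 0.1 (0.0696), with no filter (0.0850) and without liver cKO replicate 2 (0.0748), liver YFP+ replicate 2 (0.0749), thymus cKO replicate 2 (0.0583), thymus YFP+ replicate 1 (0.0517) or thymus YFP+ replicate 3 (0.0664). Ifng and Gadd45b were higher in cKO in the thymus and lower in the liver, and Ccl5 was higher in both.

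Signalling genes with a difference were Sigirr at 0.63 (limma adjusted p = 0.0132), Tab2 at 0.46 (0.0401), Socs3 at -1.01 (0.0410), Tyk2 at 0.996 (0.0113) and Ikbkb at 0.47 (0.0399). The Tab2 call was lost in 14 of 18 alternatives (adjusted p up to 0.0962), that of Ikbkb in 13 (up to 0.0926) and that of Socs3 in 10 (up to 0.0995). Of the fits without 1 library, Tab2 passed only without replicate 1 of either YFP+ group, Ikbkb only without liver cKO replicate 2 or liver YFP+ replicate 3, and Socs3 only without liver cKO replicate 3, liver YFP+ replicate 1 or thymus cKO replicate 1. The Sigirr call was lost with the replicate block (0.0547). Il1r2 at -0.50 (0.0388), Csf3r at 0.72 (0.00465) and Il1b at -0.68 (0.0354) were below the tested level in the thymus, so their difference is mostly the liver change. The Il1r2 call was lost in 15 of 18 alternatives (adjusted p up to 0.110) and that of Il1b in 14 (up to 0.0818), while that of Csf3r was lost with a pseudocount of 0.1 (0.329). Without 1 library, Il1r2 passed only without replicate 3 of a liver group and Il1b only without liver cKO replicate 3 or liver YFP+ replicate 2. Groups of 3 libraries were not screened for single libraries that stand apart.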

How the results depend on the processing

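Depth is unknown, and 3 libraries a group limit precision. Receptor chains called were 5 in the thymus (3 to 5 when 1 library was left out), 1 in the liver (1 to 1) and 3 in the difference between tissues (3 to 4). Liver chains called rose to 2 with median-ratio scaling, 2 with quantile normalization and 4 with array weights, and those of the difference to 5 with quantile normalization. Over all genes the thymus count of 1429 became 801 with no filter, 812 with median-ratio scaling, 825 with quantile normalization, 787 with the replicate block, 2798 with array weights and 472 to 2408 when 1 library was left out. Only the fit without cKO replicate 1, the library high in erythroid genes, raised it among those. The liver count of 2607 became 3940 with array weights and 1539 to 2640 when 1 library was left out. The difference count of 1466 became 2634 with array weights, 3390 with the liver groups of the description field, where 4 chains were called, and 983 to 1700 when 1 library was left out. The cause of these shifts was not tested.

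No pairing of the samples by replicate number was seen, though 3 libraries a group cannot exclude it. Deviations of same-numbered libraries correlated at -0.000264, 0.00763 and -0.0465 in the thymus and 0.0659, 0.0191 and -0.0634 in the liver. Not every library correlated best with its own number. With the replicate block, 4 chains were called in the thymus (Il12rb1 lost), 1 in the liver and 3 in the difference, with 2214 genes called in the liver and 1058 in the difference.

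Some changes near 0 turned sign. Where they turned, none passed the threshold except under the description field. Values are relative log2 changes. With no filter the value was -0.088 for Il18rap in the thymus, -0.052 for Il1rl2 in the thymus, -0.085 for Serbp1 in the thymus, -0.0096 for Il12rb2 in the liver, -0.094 for Il18rap in the liver, -0.11 for Gata3 in the liver and 0.0094 for Il18rap in the difference between tissues. With a pseudocount of 0.1 the value was 0.018 for Tbx21 in the thymus. With median-ratio scaling the value was 0.020 for Tbx21 in the thymus. With quantile normalization the value was 0.0035 for Il18rap in the difference between tissues. With array weights the value was -0.024 for Il12rb2 in the liver, -0.025 for Gata3 in the liver, 0.061 for Il18rap in the difference between tissues and 0.075 for Tbx21 in the difference between tissues. When 1 library was left out, values ran from -0.015 to 0.14 for Il18rap in the thymus, from -0.094 to 0.070 for Tbx21 in the thymus, from -0.44 to 0.042 for Il23r in the liver, from -0.0016 to 0.21 for Il12rb2 in the liver, from -0.070 to 0.048 for Gata3 in the liver, from -0.043 to 0.14 for Il18rap in the liver, from -0.27 to 0.039 for Serbp1 in the liver, from -0.20 to 0.015 for Zbtb16 in the liver, from -0.32 to 0.093 for Il17ra in the difference between tissues and from -0.11 to 0.072 for Il18rap in the difference between tissues. With the liver groups of the description field, which mirrors each liver change by construction, the difference was -0.045 for Il12rb1, 0.0060 for Il18r1, 0.88 for Il6ra, 0.18 for Tbx21, 1.11 for Stat4, 0.51 for Gadd45b, 0.19 for Il1r2, -1.09 for Csf3r, 0.35 for Il1b, 0.45 for Socs3, -0.86 for Tyk2, -0.89 for Ikbkb, 1.74 for Ccl4 and 0.44 for Ccl3.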
